A study of Mus musculus with 12 samples.

Results

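N6-methyladenosine (m6A) peaks in the last exon of protein-coding transcripts were compared between wild-type and Mettl3-deficient mouse liver. A peak was taken when it carried a gene name, the biotype protein_coding and an exon annotation placing it in exon N of N of a transcript with at least 2 exons. This rule used position and biotype only, not the measured change, and found 550 peaks in 459 genes among 17503 listed peaks with a gene name in 10277 genes. Peaks in 3′ UTRs have a class of their own in the table, even though most 3′ UTRs lie in a last exon. The 550 peaks are therefore those that the authors listed under exon rather than UTR, and how much of each is coding sequence was not tested.

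The study used livers of C57BL/6 mice and set wild type against Mettl3 deficiency. For each genotype there were 3 biological replicates, each with a library of RNA precipitated by an anti-m6A antibody and a library of input poly(A) RNA, 12 libraries in 4 groups. The sources used here do not give the allele, the Cre driver if any, age or sex, nor which cells still carry Mettl3. Only the authors' own comparison of the genotypes was analysed, with 1 log2 fold change and 1 false discovery rate (FDR) per peak and no value per library, so the depth and the spread between mice are unknown for every value below.

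METTL3 is the catalytic subunit of the nuclear complex, with METTL14, that writes m6A into pre-mRNA. The mark is enriched around stop codons and in long exons, last exons among them, while sequence close to splice junctions carries little of it. Reader proteins bind methylated mRNA and affect its decay and translation, and in liver the mark is studied for its part in metabolism and in the maturation of hepatocytes. Genes of C2H2 zinc finger proteins are a textbook case of a long coding last exon, since a single exon at the end of the gene commonly encodes the whole array of fingers.

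The table does not state which genotype is the numerator. From the design, negative is likely to mean less m6A enrichment without Mettl3, and the text speaks of negative and positive changes. Peaks of 11 of 12 hepatocyte marker genes were listed, while Pck1 was not among them. Marker genes of other liver cells had listed peaks too, from 5 of 7 endothelial genes, 5 of 7 stellate genes, 6 of 7 macrophage genes, 2 of 5 cholangiocyte genes and 1 of 3 erythroid genes. Of all these marker genes only Cd14 and Stab1 had a last-exon peak. In bulk tissue, fewer cells of a type and less methylation or RNA per cell cannot be told apart. Cd14, a coreceptor for lipopolysaccharide on macrophages that hepatocytes can also make, is given -1.73 with a log10 FDR of -28.5 in the authors' deposited table. The part of other cell types in the changes was not tested.

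Last-exon peaks were mostly negative, by a wide margin. Peaks with an FDR of at most 0.05 in the authors' comparison are termed called. By this rule 340 of the 550 last-exon peaks (61.8%) were called, 307 as negative and 33 as positive. Over all 17503 listed peaks 76.2% were called, 40.6% negative and 35.6% positive. The negative share of called last-exon peaks was 90.3% (95% Wilson interval 86.7 to 93.0, counting error over peaks only), against 53.3% of called peaks in the whole table. Last-exon peaks were thus called less often than listed peaks at large, and those called were more often negative.

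The sizes of the changes were also on the negative side. The median log2 fold change of the 550 peaks was -1.42 (quartiles -2.11 and -0.71, 95% order-statistic interval -1.54 to -1.34), against 0.34 for all listed peaks. The median of the 307 called negative peaks was -1.78 (quartiles -2.38 and -1.36), which is a ratio of 0.291 between the genotypes. Of these 307 peaks 272 (88.6%) had a log2 fold change of -1 or below, and 12 of the 33 called positive peaks (36.4%), whose median was 0.82, reached 1 or more. Among the called negative peaks, 123 in 111 genes stood at -2 or below.

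The 210 peaks that were not called held large changes as well. Their 123 negative values had a median size of 1.36 and reached 5, and their 87 positive values had a median size of 1.75 and reached 3.81. Peaks just inside and just outside the threshold lay close together. Just inside, the authors' deposited table lists Tcf7l1 at -1.34 in 2 overlapping rows and Traf3ip2 at 1.22, all with a log10 FDR of -1.31. Zfp111 was the next one in, at -1.38 with a log10 FDR of -1.33 in the authors' deposited table. Just outside, the authors' deposited table has Pdzd8 at -0.73 and Dock4 at -0.60, both with a log10 FDR of -1.30, followed by Exd1 at -0.88 (-1.29) and Gm14326 at -4.58 (-1.28).

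**Figure D1:**
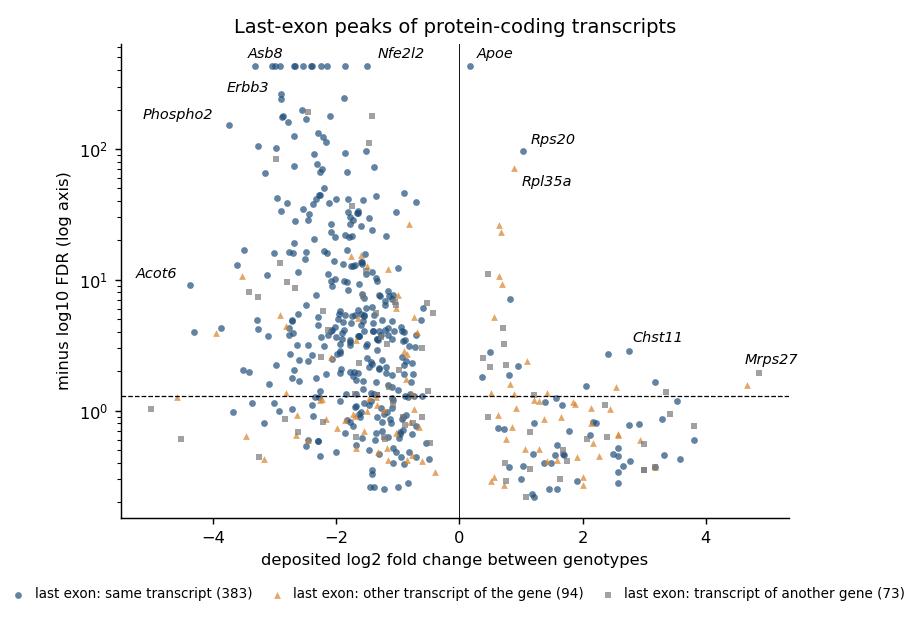
Deposited log2 fold change between the genotypes (horizontal axis) against minus the log10 of the FDR (vertical axis, logarithmic) for the 550 last-exon peaks, 1 point per peak, with shape and colour giving the transcript behind the exon annotation. The dashed line marks an FDR of 0.05; 307 points lie above it on the negative side and 33 on the positive side, and the row of 14 points at the top holds the peaks at the lowest FDR that the table contains.

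The exon annotation and the transcript column of the table did not always name the same transcript, and the negative share followed that difference. In 383 of the 550 peaks (69.6%), in 315 genes, both named the same transcript. Of these, 267 were called, 256 negative and 11 positive, a negative share of 95.9% (92.8 to 97.7) with a median change of -1.59 over the 383 peaks. In 94 peaks the exon belonged to another transcript of the same gene: 34 were called, 21 of them negative (61.8%, 45 to 76.1), and the median was -0.73. In the other 73 peaks, the exon belonged to a transcript of a different gene from the one that the table names for the peak. Of those, 39 were called, 30 negative (76.9%, 61.7 to 87.4), with a median of -0.98. The low count of called peaks leaves wide intervals for both smaller sets.

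These sets also differed in width and in place. Genomic width, from start to end on the genome with any intron included, had a median of 299 bp in peaks of the same transcript, 180 bp in those of another transcript of the gene and 240 bp in those of another gene. Over all 550 peaks the median was 241 bp (quartiles 150 and 449) and the widest was 8435 bp, against a median of 480 bp in all listed peaks. Placed on the RefSeq gene of the same symbol, the middle of the peak lay a median of 2521 bp from the 3′ end of the gene for the same transcript (292 peaks with a stranded match, quartiles 1536 and 4751). For another transcript of the gene the median distance was 10606 bp (73 peaks), and for another gene 7785 bp (43 peaks). In relative terms the peaks of the same transcript lay a median of 88.0% along the gene, those of another transcript 56.7% and those of another gene 50.3%, so that a good part of the smaller sets lies in the middle of the named gene.

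Set beside other classes of protein-coding peaks, last-exon peaks had the highest negative share of the 6 classes compared. Internal exons had 609 negative of 969 called peaks (62.8%, 59.8 to 65.8) with a median change of -0.71 over 1386 peaks. First exons had 68 of 93 (73.1%, 63.3 to 81.1), and single-exon transcripts 42 of 74 (56.8%). In 3′ UTRs, the class nearest to last-exon peaks on the transcript, 4185 of 6850 called peaks were negative (61.1%, 59.9 to 62.2) with a median of -0.53. In 5′ UTRs it was 827 of 2566 (32.2%, 30.4 to 34.1), with a median of 0.64. Last-exon peaks of transcripts that are not protein-coding, which are outside the 550, had 84 negative of 125 called (67.2%).

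**Figure D2:**
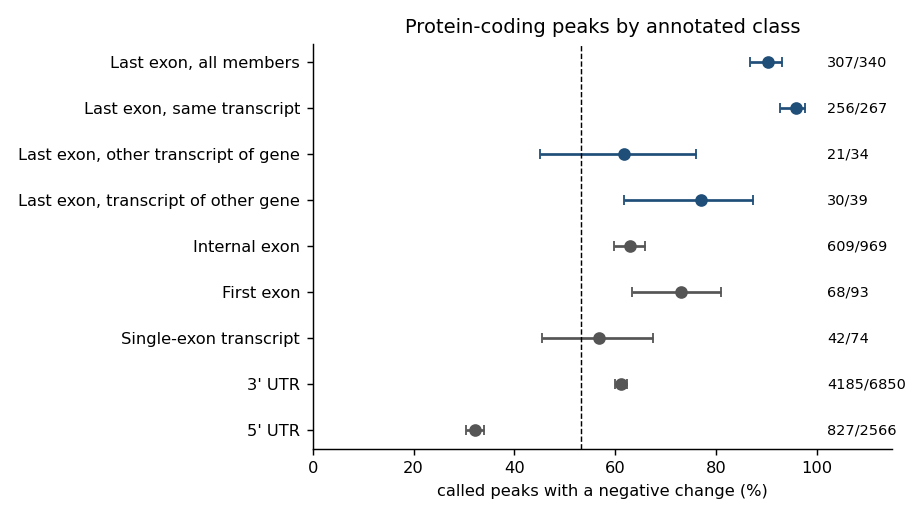
Share of called peaks with a negative change (horizontal axis, percent) in each annotated class of protein-coding peaks, with 95% Wilson intervals as bars and the counts of negative over called peaks at the right. The dashed line is the share over all listed peaks, 53.3%; the last-exon share is 90.3% overall and 95.9% where the exon belongs to the transcript that the table names, and the 5′ UTR share is 32.2%.

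The difference from internal exons was 27.4 percentage points (95% Newcombe interval 22.8 to 31.6, counting error over peaks only). Width and gene content moved with it. Internal-exon peaks were wider, with a median of 600 bp, and among peaks of at most 1000 bp the shares were 90.9% and 71.2%, a difference of 19.7 points. In the 30 genes with a called peak in both classes, the leading peak of each class (the one with the smallest FDR) was negative in 83.3% of genes for the last exon and in 73.3% for an internal exon. Gene by gene, both were negative in 21 and both positive in 4, while 4 were negative in the last exon only and 1 in the internal exon only, so the difference of 10 points rests on 5 genes. Where both classes were limited to peaks whose exon belongs to the named transcript, the difference was 33.4 points. The parts of width and of gene content in the difference between the classes were not tested further.

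The negative share was lower at weak evidence than at strong evidence. For an FDR between 0.01 and 0.05, 37 of 50 called last-exon peaks were negative (74.0%, 60.4 to 84.1), against 35.7% of all listed peaks in that range. At a log10 FDR of -2 or below, 270 of 290 last-exon peaks were negative (93.1%), against 55.7% of all listed peaks at that level. At -5 or below it was 169 of 179 (94.4%) against 63.8%, and at -10 or below 118 of 125 against 71.2%. At -50 or below it was 44 of 47 (93.6%) against 81.1%. Beyond a log10 FDR of -2, the whole table thus moved towards the last-exon share as the evidence grew, while the last-exon share stayed near its level.

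At the lowest log10 FDR in the table, -434, stood 14 last-exon peaks, 13 negative and 1 positive, all in an exon of the named transcript. Asb8, a substrate receptor of a cullin ubiquitin ligase, was the most negative of them: its peak in exon 4 of 4 (chr15:98135827-98136421, mm10) stood at -3.31 in the authors' deposited table. Mul1, a ubiquitin ligase of the mitochondrial outer membrane, followed at -3.04 in the authors' deposited table (chr4:138439042-138439340). Mrps2, a protein of the small subunit of the mitochondrial ribosome, had -2.99 in the authors' deposited table (chr2:28469238-28469898). Both connexins that form the gap junctions between hepatocytes were in this group. For Gjb2 the authors' deposited table gives -2.91 (chr14:57100233-57100441). Gjb1, which lies on the X chromosome, is listed at -1.86 in the authors' deposited table (chrX:101384462-101384611).

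The others of that group, apart from the carrier gene Slc35b2 and Urgcp at -2.39 in the authors' deposited table, have varied roles. Suox, the sulfite oxidase of the mitochondrial intermembrane space, stood at -2.53 in the authors' deposited table. Mlycd, which breaks down malonyl-CoA and so relieves the block on fatty acid oxidation, is at -2.15 in the authors' deposited table. Pex11a, which takes part in the division of peroxisomes, has -2.66 in the authors' deposited table. Thpo encodes the thrombopoietin that the liver supplies to platelet precursors, and its value in the authors' deposited table is -2.40. Cpn2, the regulatory subunit of the plasma enzyme carboxypeptidase N, stands at -2.25 in the authors' deposited table. Nfe2l2 encodes NRF2, the main transcription factor of the antioxidant response, and its peak in exon 5 of 5 (chr2:75676021-75677157) had -1.5 in the authors' deposited table. A second last-exon peak of Nfe2l2, of 61 bp and in another transcript, was not called and is at 1.38 in the authors' deposited table. Keap1, the adaptor that marks NRF2 for degradation, also had peaks in this class, at -0.52 (log10 FDR -6.61) and -0.43 (-5.53) in the authors' deposited table, both with an exon of another gene. Both lie inside a wider 3′ UTR peak of Keap1 (chr9:21230059-21233420), which had -1.41 (-434) in the authors' deposited table. The only positive peak at the lowest FDR was that of Apoe, the apolipoprotein of remnant lipoproteins, at 0.17 in the authors' deposited table, a small change below the median of all listed peaks.

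Further strong negative peaks fell in genes of varied function. For Psmd5, a chaperone of proteasome assembly, the authors' deposited table gives -2.90 with a log10 FDR of -261. Eppk1, a keratin-binding plakin, had -1.87 (-244) in the authors' deposited table at its leading peak. Sdr42e1, a member of the short-chain dehydrogenases, had -2.55 (-197) in the authors' deposited table. Gclc encodes the catalytic subunit of the rate-limiting enzyme of glutathione synthesis and is a target of NRF2; the authors' deposited table gives -1.86 (-93.9) for a peak of 90 bp in exon 16 of 16. Dag1, the laminin receptor dystroglycan, had peaks at -2.22 (-123) and -1.51 (-96.5) in the authors' deposited table. Polr1b, a core subunit of RNA polymerase I, stood at -2.98 (-101) in the authors' deposited table. Strong evidence in an exon of another gene was seen for Psma2, a proteasome subunit, with -2.46 (-192) in the authors' deposited table, though that peak lies outside the RefSeq span of Psma2.

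The 10 most negative called peaks in genes with an established symbol ranged from -4.37 to -3.42. Acot6, an acyl-CoA thioesterase, was lowest, with -4.37 and a log10 FDR of -9.14 in the authors' deposited table (chr12:84109192-84109312, exon 3 of 3). The zinc finger genes Zfp316 and Zfp560 had -4.30 (-4.02) and -3.87 (-4.26) in the authors' deposited table. Phospho2, a phosphatase gene, combined a large change with strong evidence, at -3.74 (-153) in the authors' deposited table. Exph5, an effector of a Rab GTPase in vesicle transport, had -3.60 (-13.0) and Rnf39, a RING finger gene, -3.50 (-16.8) in the authors' deposited table. Mex3b, an RNA-binding protein, and Tnfaip8l3, a carrier of phosphoinositides, passed with weaker evidence, at -3.51 (-2.05) and -3.42 (-1.97) in the authors' deposited table. In Hnrnpll, a regulator of splicing in lymphocytes, and Kif16b, a kinesin of early endosomes, the exon belonged to another transcript of the gene, and the authors' deposited table gives -3.95 (-3.95) and -3.53 (-10.6).

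Positive called peaks were few, and most had weak evidence. Among the 12 positive peaks of at least 1, those other than Rps20 had log10 FDR values from -2.86 to -1.31. A further 15 lay between 0.37 and 0.96 with log10 FDR values from -9.29 to -1.33. Mrps27, another gene of the mitochondrial ribosome, was highest, with 4.86 and a log10 FDR of -1.95 in the authors' deposited table, followed by the mono-ADP-ribosylhydrolase gene Macrod1 at 3.35 (-1.39); both had an exon of another gene. In the named transcript, the authors' deposited table has the semaphorin gene Sema3g at 3.17 (-1.65), the chondroitin sulfotransferase gene Chst11 at 2.75 (-2.86), and Ppp1r16b, a phosphatase regulator of endothelial cells, at 2.41 (-2.70). Tlr7, the endosomal sensor of single-stranded RNA, stood at 2.05 (-1.55) in the authors' deposited table. The rest of the 10 most positive were, in the authors' deposited table, the replication origin subunit gene Orc4 at 2.54 (-1.51), the cyclin gene Ccnd3 at 1.42 (-1.36), the interleukin receptor adaptor gene Traf3ip2 at 1.22 (-1.31) and the lipid kinase gene Pi4k2a at 1.10 (-2.40), all with an exon of another transcript or gene.

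Only 7 positive peaks, Apoe among them, had a log10 FDR of -10 or below. All 3 last-exon peaks of cytosolic ribosomal protein genes, taken by symbol, were positive. The KEGG ribosome map, a different set, had 5 last-exon peaks, of which 3 were called positive and 1 negative. Over all listed peaks of genes in that map 24 of 144 called (16.7%) were negative. Rps20 stood at 1.04 (log10 FDR -96.0), Rpl35a at 0.89 (-71.0) and Rpl27 at 0.68 (-23.2) in the authors' deposited table, with widths of 91, 91 and 61 bp. These genes were chosen after their values were seen, as were the next ones. Fxyd1, a regulator of the sodium pump, had 0.65 (-26.1), and Ndufb8, a subunit of respiratory complex I, had 0.64 (-10.6) in the authors' deposited table. Eif3d, a translation initiation factor gene, had 3 called positive peaks from 0.39 to 0.71 in the authors' deposited table, of which the widest overlaps the other 2, and all 3 carry an exon of another gene. Of the 33 called positive peaks, 11 were in an exon of the named transcript, 13 in one of another transcript of the gene and 9 in one of another gene. The median width of the 33 was 180 bp, against 360 bp for the 307 called negative peaks.

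Genes of C2H2 zinc finger proteins, most of which are transcription factors, were the largest of the 10 gene lists, with 111 peaks in 80 genes, 20.2% of all last-exon peaks. Last-exon peaks were 16.2% of the 684 listed peaks of this list, against 3.14% over the whole table. Of these 111 peaks 63 (56.8%), in 51 genes, were called, against 61.8% of all last-exon peaks and 76.2% of all listed peaks. All 63 were negative (100%, Wilson interval 94.3 to 100), from -4.30 to -0.87. The median change of the 111 was -1.55. The strongest evidence was for Zkscan17, a zinc finger protein with KRAB and SCAN domains, whose peak in exon 10 of 10 (chr11:59487104-59487791) had -2.29 (log10 FDR -133) in the authors' deposited table. Zbtb24, which is needed for methylation of centromeric repeats, had -2.35 (-90.8) in exon 7 of 7 (chr10:41464406-41465035) in the authors' deposited table. The authors' deposited table gives -1.81 (-32.9) for Zfp553 and -1.77 (-30.4) for Zfp574, each in exon 2 of 2.

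The negative share was high outside the zinc finger list as well. That list was drawn by gene symbol, so zinc finger genes with other names, such as Repin1, stay outside it. Without the listed genes, 244 of 277 called last-exon peaks were negative (88.1%, 83.7 to 91.4), and in the exon of the named transcript 197 of 208 (94.7%, 90.8 to 97.0). Nor were the negative values of zinc finger genes limited to the last exon. Their listed peaks elsewhere were negative in 345 of 407 called (84.8%), with 240 of 278 in 3′ UTRs (86.3%), 44 of 49 in internal exons (89.8%) and 56 of 75 in 5′ UTRs (74.7%). These counts take in transcripts of any biotype. Over protein-coding 5′ UTR peaks alone, the share of zinc finger genes was 76.9% (50 of 65), beside 32.2% for all genes. Among the 48 zinc finger last-exon peaks that were not called, 36 were below 0, with a median of -1.18. The 6 peaks of Zfp469, a collagen-related zinc finger gene with a very large last exon, were positive from 1 to 3.54 in the authors' deposited table, and none was called.

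**Figure D3:**
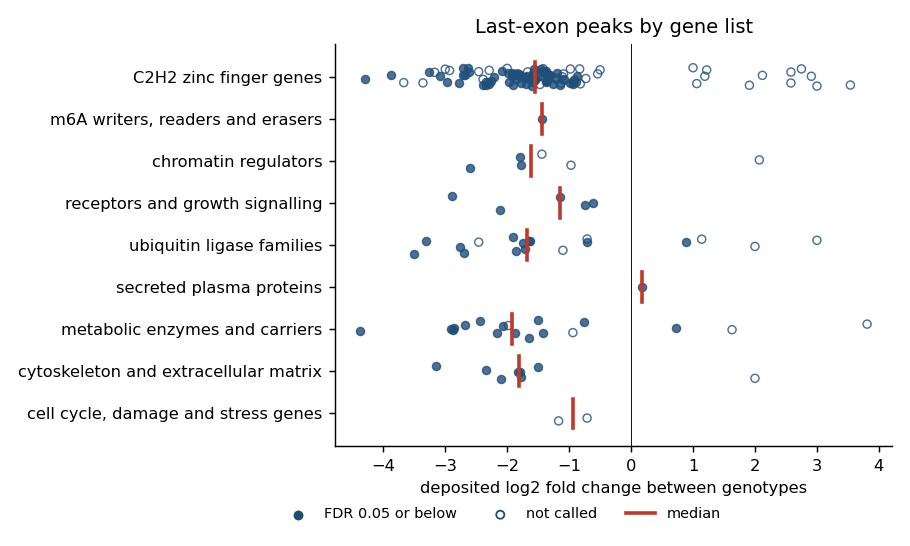
Deposited log2 fold change of last-exon peaks (horizontal axis) by gene list, 1 point per peak, filled where the FDR was 0.05 or below and open otherwise, with the list's median as a red bar. All 63 filled points of the zinc finger genes are negative; the plasma protein list has a single point, Apoe, at 0.17, and the 2 points of the cell cycle list, both from Brca2, are open.

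Metabolic enzymes and membrane carriers gave the second group, with 18 peaks in 17 genes, of which 13 were negative, 1 positive and 4 not called. Thus 77.8% were called, beside 61.8% of all last-exon peaks and 76.2% of all listed peaks. Of those called 92.9% were negative, beside 90.3% of all called last-exon peaks. Their median was -1.93. Slc35b2, the carrier that brings the sulfate donor into the Golgi, had -2.68 (log10 FDR -434, chr17:45566507-45566805) in the authors' deposited table. Acot4, an acyl-CoA thioesterase of peroxisomes, had -2.86 (-178), and Slc16a1, the monocarboxylate carrier of lactate, -1.64 (-33.7) in the authors' deposited table. Slc35g1, a transmembrane carrier gene, followed at -2.44 (-32.1) in the authors' deposited table. The positive one was Aldh5a1, the succinate semialdehyde dehydrogenase, at 0.72 (-3.21) in the authors' deposited table. Other listed peaks of these families were negative in 229 of 443 called (51.7%), close to the 53.3% of the whole table.

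Ubiquitin ligase families had 18 peaks in 17 genes, 11 negative, 1 positive and 6 not called. Thus 66.7% were called and 91.7% of those were negative, beside 61.8% and 90.3% over all last-exon peaks. Besides Asb8, they included Rnf135, a RING ligase of antiviral RIG-I signalling, with -1.65 (log10 FDR -32.6), and Dcaf5, a substrate receptor of a cullin ligase, with -1.74 (-21.7) in the authors' deposited table. Kctd17, an adaptor for a cullin ligase, was the positive one, at 0.89 (-1.33) in the authors' deposited table. Other listed peaks of these families were negative in 166 of 233 called.

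Receptors and growth signalling genes had 5 last-exon peaks in 5 genes, and all 5 were called and negative. Over all last-exon peaks 61.8% were called, and 90.3% of those called were negative. Whether this short list differs from those shares was not tested. Erbb3, the neuregulin receptor that pairs with other ERBB kinases, had -2.89 (log10 FDR -241) in exon 28 of 28 (chr10:128569378-128569737) in the authors' deposited table. Notch2, which directs bile duct formation, had -2.11 (-38.3), and its relative Notch1 -0.62 (-4.94), both in exon 34 of 34, in the authors' deposited table. For the Wnt pathway, the authors' deposited table lists the receptor gene Fzd4 at -1.15 (-3.79) and Apc, a scaffold of the beta-catenin destruction complex, at -0.75 (-1.90). Other listed peaks of this list were negative in 60 of 75 called.

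Chromatin regulators had 6 peaks in 4 genes, 3 negative, none positive and 3 not called. Over all last-exon peaks 61.8% were called and 90.3% of those were negative. Asxl1, a cofactor of histone H2A deubiquitination, had -1.80 (log10 FDR -41.8) in exon 12 of 12 in the authors' deposited table. Nrip1, a nuclear receptor corepressor that restrains oxidative metabolism, had called peaks at -2.60 and -1.78 and another, not called, at -0.97 in the authors' deposited table. Baz2b (-1.44) and the DNA demethylase gene Tet3 (2.07, in an exon of another gene) were not called in the authors' deposited table. Other listed peaks of chromatin regulators were negative in 112 of 172 called.

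The cytoskeleton and matrix list had 8 peaks in 4 genes, 7 negative and 1 not called. Thus 87.5% were called, all negative, beside 61.8% called and 90.3% of those negative over all last-exon peaks. Plec, the cytolinker plectin, held 4 of them in exon 33 of 33, from -2.10 to -1.77 in the authors' deposited table. Myorg, a glycosidase that the list took in by the start of its symbol alone, had -3.15 (log10 FDR -65.0) and -2.35 (-20.5) in the authors' deposited table. Itga1, a collagen-binding integrin, had -1.51 (-11.7) with an exon of another gene, and Col6a2, a chain of collagen VI, was not called at 2, in the authors' deposited table. Other listed peaks of this list were negative in 64 of 149 called (43.0%).

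The remaining lists had 2 last-exon peaks or fewer each. Over the whole table, last-exon peaks were 3.14% of listed peaks, so that few fall in a short list. None of the hepatocyte transcription factors listed had a last-exon peak, although 30 of them had 65 other listed peaks, 41 negative of 57 called. Among m6A writers, readers and erasers only Virma, the large scaffold of the writer complex, had a last-exon peak, 1 of the 31 listed peaks of that list, with -1.44 and a log10 FDR of -2.36 in the authors' deposited table. Of the 110 listed peaks of secreted plasma proteins only that of Apoe was in this class, while the list's other peaks were negative in 37 of 99 called. The cell cycle, damage and stress list, with 39 listed peaks, had 2 overlapping ones of Brca2, the DNA repair gene, at -1.17 and -0.71, neither called, in the authors' deposited table. In all, 170 of the 550 peaks, in 130 genes, belonged to a list and 380 to none.

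Gene Ontology and KEGG terms in the table gave the same grouping by other labels, which were read after the values were seen. Nucleic acid binding was annotated to 109 genes with a last-exon peak, 23.7% of them, against 7.61% of all genes with a listed peak, and all 83 called last-exon peaks of these genes were negative, against 735 of 1101 (66.8%) over all their listed peaks. Regulation of transcription was annotated to 89 genes (19.4% against 6.72%), with 61 of 62 called last-exon peaks negative, against 630 of 906 (69.5%) over all listed peaks. The KEGG map of herpes simplex virus infection, which in mouse holds many KRAB zinc finger genes, had 43 genes (9.37% against 2.12%), with 34 of 34 called last-exon peaks negative and 183 of 276 over all their listed peaks. Genes annotated to the mitochondrion were mixed, with 22 negative and 7 positive called last-exon peaks, and 772 negative of 1759 called (43.9%) over all listed peaks. These terms overlap with the zinc finger list, so their counts are not separate evidence.

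Called last-exon peaks of a gene had the same sign. A single last-exon peak was found in 394 genes, 2 in 49 genes and 3 or more in 16 genes. Of the 37 genes with at least 2 called last-exon peaks, 36 were negative at all of them, 1 (Eif3d) was positive at all of them, and none had called peaks of both signs. Over all called last-exon peaks 90.3% were negative, and whether peaks of a gene share a sign beyond that was not tested. Some of the 37 genes, Acot4 and Eif3d among them, are counted through overlapping rows. Counting peaks that were not called, 3 of the 65 genes with several last-exon peaks had values of both signs. Peaks of 1 gene share transcript, depth and annotation, so they are not separate observations. The 4 peaks of Eppk1 ran from -2.19 to -1.28 in the authors' deposited table, spread over the last exon of the gene between chr15:76102439 and chr15:76105462. Usf3, a basic helix-loop-helix factor, had 4 peaks from -2.01 to -1.63, and Lcor, a nuclear receptor corepressor, 4 from -2.13 to -0.80, in the authors' deposited table. Fam83h, known for its role in enamel and keratin organisation, had 3 peaks from -2.96 to -2.67 in the authors' deposited table. Zfp316 varied most among the genes with 3 or more called peaks named here, with -4.30, -1.87 and -1.58 in the authors' deposited table. Zmym1, a zinc finger gene of the MYM type, had 5 peaks from -1.15 to -0.60 in the authors' deposited table, none of them called.

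Of the 459 genes, 300 had another listed peak, with 253 having one in a 3′ UTR, 103 in a 5′ UTR and 52 in an internal exon. The other 159 genes were listed through last-exon peaks only. Their 187 peaks were called less often (50.8%) than the 363 of genes with other peaks (67.5%), while the negative shares, 90.5% (83.0 to 94.9) and 90.2% (85.8 to 93.3), had overlapping intervals. Protein-coding 3′ UTR peaks of genes with a last-exon peak were negative in 209 of 265 called (78.9%, 73.6 to 83.4), against 3976 of 6585 (60.4%, 59.2 to 61.6) in genes without one.

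Last-exon and 3′ UTR peaks of a gene mostly had the same sign, and each class was mostly negative by itself. Of all called last-exon peaks 90.3% were negative. Among called 3′ UTR peaks of any biotype in genes with a last-exon peak the share was 78.8%. Agreement within genes beyond these shares was not tested. In 145 genes a called last-exon peak could be set against a called, non-overlapping 3′ UTR peak, using the leading peak of each class and 3′ UTR peaks of any biotype, with a median gap of 597 bp between them. Both were negative in 122 genes and both positive in 8. In 13 genes the last-exon peak was negative and the 3′ UTR peak positive, and in 2 genes it was the reverse. The 3′ UTR value exceeded the last-exon value by a median log2 difference of 0.26 (quartiles -0.21 and 0.86), and the last-exon peak was the more negative in 95 genes and the 3′ UTR peak in 50. In the 112 genes whose last exon belonged to the named transcript, these numbers were 101, 2, 9 and 0, with a median difference of 0.32 and the last exon the more negative in 74 genes.

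Single genes departed widely from that agreement. In 4 of the 145 genes, Psma2 among them, the last-exon peak lay outside the RefSeq span of the gene. Fpgt, an enzyme of fucose salvage, had, in the authors' deposited table, -2.71 in the last exon and 1.5 in the 3′ UTR. In Eppk1 the leading last-exon peak stood at -1.87 (log10 FDR -244) and the 3′ UTR peak, 1167 bp away, at 1.13 (-12.4) in the authors' deposited table, both with strong evidence. Opposite signs with a 3′ UTR peak close to the threshold were found for Tmem101, Zfp398 and Zfp316, last exon first, in the authors' deposited table. Tmem101, a membrane protein gene, had -2.08 (-9.86) and 0.70 (-1.44), and the zinc finger gene Zfp398 had -1.31 (-4.09) and 1.44 (-1.33), in the authors' deposited table. Zfp316 had -1.87 (-9.87) and 0.69 (-1.36) in the authors' deposited table. Zfp560 was negative at both but differed in size, at -3.87 and -0.68 in the authors' deposited table. Mrps27 went the other way, with 4.86 (-1.95) in an exon of another gene and -1.39 (-229) in its 3′ UTR, as did Pi4k2a with 1.10 and -0.96, all in the authors' deposited table. Rgma, a coreceptor for bone morphogenetic proteins, and Akap17b, an anchoring protein of protein kinase A, were more negative in the 3′ UTR, at -3.34 against -1.44 and -3.65 against -1.88 in the authors' deposited table.

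**Figure D4:**
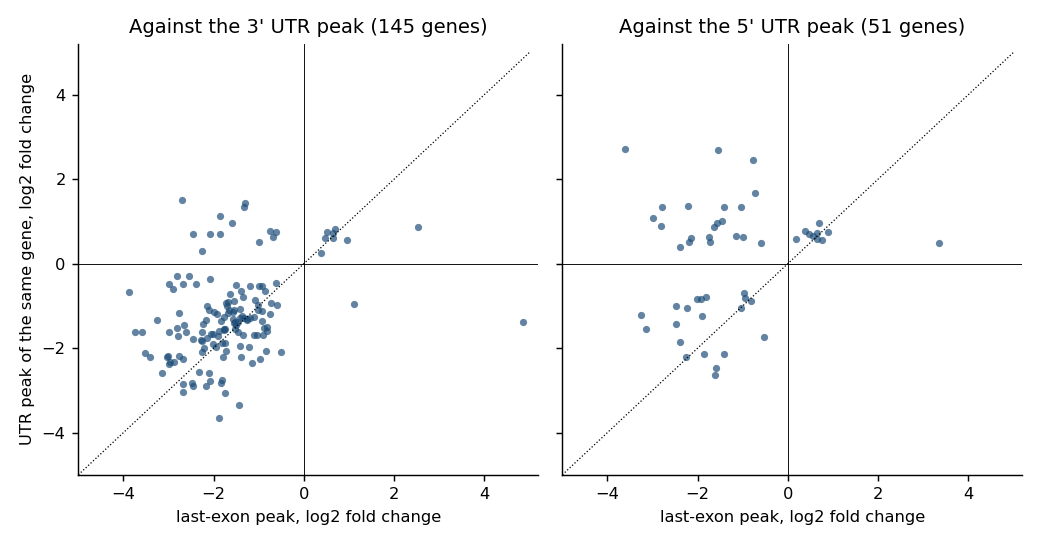
Log2 fold change of the leading called last-exon peak (horizontal axis) against that of the leading called peak in the 3′ UTR (left, 145 genes) or 5′ UTR (right, 51 genes) of the same gene, 1 point per gene, with the dotted line marking equal values. On the left 122 genes lie at the lower left, where both are negative; on the right 21 genes lie at the upper left, negative in the last exon and positive in the 5′ UTR.

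Opposite signs were also counted between the last exon and the 5′ UTR of a gene. The classes leaned to opposite signs by themselves: 90.3% of all called last-exon peaks and 32.2% of called protein-coding 5′ UTR peaks were negative. Whether signs within a gene depart from these shares was not tested. In 51 genes with called, non-overlapping peaks in the last exon and a 5′ UTR of any biotype, both were negative in 20 and both positive in 10. Another 21 were negative in the last exon and positive in the 5′ UTR, while none showed the reverse. A further 4 genes with overlapping peaks were left out, and in 3 of the 51 the last-exon peak lay outside the RefSeq span. The medians were -1.58 in the last exon and 0.55 in the 5′ UTR, and the median difference within a gene was 1.09. The authors' deposited table has the last exon of Exph5 at -3.60 (log10 FDR -13.0) and its 5′ UTR at 2.72 (-1.33). That 5′ UTR peak lay close to the threshold and was listed over a wide stretch, chr9:53301700-53337920. Repin1, a zinc finger gene named for a replication origin and not in the list above, had -2.78 (-162) and 1.35 (-7.56) in the authors' deposited table. Weaker evidence at the 5′ UTR was given for Polr1b, with -2.98 (-101) and 1.07 (-2.13), in the authors' deposited table. The same held for Dag1, with -2.22 (-123) and 1.36 (-2.44) in the authors' deposited table. Chn2, a Rac GTPase-activating protein gene, had -2.82 (-4.44), with an exon of another transcript, and 0.89 (-2.44) in the authors' deposited table. Against non-overlapping internal-exon peaks of any biotype, 22 of 30 genes were negative at both, with a median difference of 0.07.

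Over all last-exon peaks, narrow peaks were called less often, and the negative share was lowest among them. Of 86 last-exon peaks of at most 100 bp, 28 were called and 19 of those were negative (67.9%, 49.3 to 82.1). From 101 to 150 bp it was 24 of 28 called, from 151 to 300 bp 79 of 88 (89.8%) and from 301 to 600 bp 117 of 122 (95.9%). Between 601 and 1000 bp 40 of 41 called peaks were negative, and above 1000 bp 28 of 33 (84.8%). Listed peaks of at most 100 bp had 140 negative of 359 called (39.0%) in the whole table. Where the exon belonged to the named transcript, the narrowest peaks had 16 negative of 18 called (88.9%). In that set the lowest share was above 1000 bp, with 22 of 26 (84.6%).

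**Figure D5:**
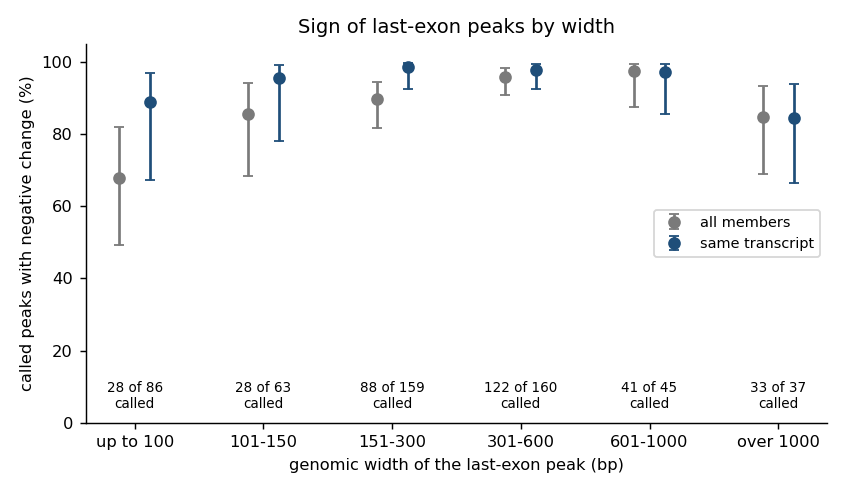
Share of called last-exon peaks with a negative change (vertical axis, percent) by genomic width of the peak, start to end (horizontal axis, bp), for all last-exon peaks in grey and those in an exon of the named transcript in blue, with 95% Wilson intervals as bars and the number called of all last-exon peaks in each bin at the foot. The share is 67.9% at up to 100 bp and between 84.8% and 97.6% in the wider bins for all last-exon peaks.

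The negative share was lowest in transcripts of 2 exons. Transcripts of 2 exons had 75 negative of 91 called last-exon peaks (82.4%, 73.3 to 88.9), those of 3 had 48 of 53, those of 4 had 45 of 51, those of 5 to 6 had 60 of 61, those of 7 to 10 had 39 of 41, and those of 11 or more had 40 of 43. Of the 33 positive peaks 16 were in transcripts of 2 exons. By position along the RefSeq gene, the first 50 percent held 27 negative of 37 called peaks (73.0%), the stretch from 50 to 90 percent 116 of 126 (92.1%) and the rest 84 of 90 (93.3%). Among peaks in an exon of the named transcript the same stretches held 17 of 17, 99 of 104 and 79 of 82, so none of the 10 positive peaks in the first stretch was in an exon of the named transcript. On the X chromosome 8 of 10 called last-exon peaks were negative, and on the autosomes 299 of 330.

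Some peaks were listed more than once, and 56 last-exon peaks overlapped another listed peak of any class. There were 15 pairs of last-exon peaks that overlap each other, and both peaks of every pair had the same sign, with a median difference of 0.12 and a largest difference of 0.98 on the log2 scale. Acot4 is listed at chr12:84043275-84043604 with -2.87 and at chr12:84043280-84043609 with -2.86 in the authors' deposited table, 2 rows for what may be the same stretch of RNA. Srcin1, an adaptor of Src kinase, differed most within a pair, at -1.67 and -2.65 in the authors' deposited table. With 1 peak kept of each overlapping set, the negative share of called last-exon peaks was 90.6%.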

How the data were processed

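Fragmented poly(A) RNA of mouse liver was pulled down with an antibody to m6A and sequenced beside input, per the labels' protocols. The submitters' processing notes name HISAT2 2.1.0 and mm10. How peaks were called and filtered, how replicates entered and how the genotypes were compared is not given in the sources used here.

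The authors deposited 1 table of their own comparison between the genotypes, with 17692 rows. Per the file headers, each row has a log2 fold change, the log10 of the FDR, a p-value rounded to 2 decimals, start, end, width, gene, exon annotation and transcript. In 189 rows without a gene name the cells stood in another order, so that over all rows the deposited log2 and log10 columns are recorded here as a score. Those 189 rows were left out, and in the rows used the columns hold log2 fold changes and log10 FDR values. The lowest log10 FDR is -434 and the next -321, so -434 is a floor. The deposited positions and widths are other measures that served to place peaks. The table holds no value per library: depth is unknown, no count test, comparison of replicates or fresh test per peak could be made, and it is unknown whether the authors' FDR allows for differences between mice. Shares refer to the peaks that the authors listed, which need not be all they tested.

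Called means an FDR of at most 0.05. Shares have 95% Wilson intervals, differences of shares Newcombe intervals, and both cover counting error over peaks only, which are not replicates. The members, the gene lists and the rule for naming genes were chosen with earlier results of these data known. That rule took the 10 most negative and 10 most positive called peaks with an established symbol, the called peaks of each list with the smallest FDR (at most 4), the genes whose last-exon and 3′ UTR peaks differ most, and the peaks next to the threshold. Genes named at the lowest FDR, with strong positive evidence, with several peaks, in overlapping rows or beside 5′ UTR peaks were chosen after their values were seen, as was the split by annotated transcript. Positions along genes use RefSeq (GRCm38.p6, the build of mm10): 544 of the 550 symbols matched, 535 peaks overlapped the span of their gene, and 408 also had a strand. Some genes that the naming rule takes are not reported here, though they stay in the counts. Sequence motifs were not searched. The choice of peaks, the counts of called and negative peaks and the Wilson interval were tested on simulated data. The other steps were not. Python 3.11.15, numpy 2.4.6, pandas 2.3.3, scipy 1.17.1 and matplotlib 3.10.9 were used.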

Additional observations from a re-analysis of the deposited data

How the results depend on the processing

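The negative share, the number of called peaks and the median change of last-exon peaks were recomputed under each alternative. For the negative share, 5 values stayed close to the main one and 4 moved. For the median change, 7 stayed close and 2 moved, and none reversed in sign. The number of called peaks, 340 at first, fell to 249 in transcripts of at least 3 exons, while centring cannot change it. All 3 alternatives of the difference from internal exons moved, and none reversed in sign. The negative share was 93.1% at an FDR of 0.01, 95.8% when called peaks also had to change by 1 or more (log2), 93.2% in transcripts of at least 3 exons and 95.9% in exons of the named transcript, the last chosen after seeing the data. The median change was -1.76 after centring on the median of all listed peaks, 0.34, and -1.59 in exons of the named transcript. The difference from internal exons was 27.4 points at first, 19.7 in peaks of at most 1000 bp, 10 in genes with both classes and 33.4 in exons of the named transcript. Narrower peaks and shared genes thus went with a smaller difference, and the cause was not tested.

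No paired analysis was possible because the table holds no values per library, and for the same reason no replicate was left out. Peaks of a single block were not run, since the table gives no blocks, and none of the 189 rows without a gene name carries an exon annotation. What limits these values is the unknown depth and spread between mice, the unstated numerator, and an exon annotation that for 30.4% of last-exon peaks names another transcript than the transcript column.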

Other observations

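Toll-like receptor genes, whose coding sequence lies mostly in the last exon, had last-exon peaks in 4 genes with differing values, which were picked out after they were seen. In the authors' deposited table, Tlr5, the receptor for flagellin, stood at -3.12 (log10 FDR -10.9) and was called. Tlr7 was called at 2.05 (-1.55), while Tlr4, the receptor for lipopolysaccharide, at -2.27 (-1.28) and Tlr13, a sensor of bacterial ribosomal RNA, at 1.58 (-0.55) were not called in the authors' deposited table.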
